A study of Danio rerio with 12 samples.

Results

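A set of 10 genes that are widely used to mark macrophages, neutrophils or both in zebrafish was followed in regenerating ventricles that lack functional *grl* (also named *hey2*) and in wild-type (WT) ventricles. The 10 genes were taken from the 32105 genes of the deposited table by their symbols, each of which matched 1 row. *mpeg1.1*, *marco*, *csf1ra* and *mfap4* stand for macrophages, *mpx* and *lyz* for neutrophils, and *spi1b*, *lcp1*, *coro1a* and *cybb* for both cell types or for leukocytes in general. All 10 passed the filter on low counts.

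Hearts of AB strain zebrafish aged 5 months were resected at the ventricular apex and collected at 7 days post-amputation (dpa). The *grl5nt-/-* fish are homozygous for a small deletion in the first exon of *grl*, made with a guide RNA and predicted to leave a short truncated peptide, and the WT fish received the same surgery and no other treatment. The mutation is present in all cells of the fish, not in one cell type. Each group had 3 libraries, each made from 6 pooled hearts, so that a library averages over 6 animals and over all cells of the ventricle. The series has 12 samples, and the 6 that concern *grl* overexpression are not analysed here.

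Macrophages and neutrophils are the phagocytes that enter a wounded heart. Neutrophils arrive first and release enzymes and oxidants from their granules and membrane, and macrophages follow, take up debris and persist while the clot and scar are remodelled. In zebrafish both lineages depend on the transcription factor PU.1, which *spi1b* encodes, and macrophages also depend on signals through the receptor Csf1r.

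Library totals lay between 12520034 and 15006574 counts. Transcripts of *hey2* were counted in both genotypes, at 11.3 ± 1.76 CPM (counts scaled to a common library size with the TMM factors of edgeR) in WT and 17.6 ± 1.78 CPM (mean ± SD of 3 libraries each) in *grl5nt-/-* ventricles. A small deletion need not lower the transcript, so this level does not test which fish were mutant. A further difference between libraries crossed the genotypes. *mt-co1*, a mitochondrial gene, had no count in WT replicates 1 and 2 and mutant replicate 1, and between 583890 and 739939 counts in WT replicate 3 and mutant replicates 2 and 3. The libraries without *mt-co1* reads were not of one kind. WT replicates 1 and 2 had 152528 and 137563 counts of *mt-atp6* and mutant replicate 1 had none, while mutant replicate 1 had 305565 counts of *mt-co3* and WT replicates 1 and 2 had 0 and 1. On that side of the split a difference between genotypes cannot be told apart from this one. The first principal component of all tested genes, with 60.8% of the variance, separated these same libraries. Neither the labels nor the methods describe such a division. In what follows it is called the *mt-co1* split. Several of the marker genes moved with it, and values with regard to it are given for the markers and, more briefly, for the gene lists. Heart muscle markers were abundant in every library, with a summed level of 8 cardiomyocyte genes between 21860 and 31350 CPM.

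Levels of different genes were compared in FPKM, which corrects for exon length. FPKM are not scaled with the TMM factors, which ran from 0.788 (mutant replicate 2) to 1.31 (WT replicate 1). The FPKM of the 2 genotypes are therefore not a normalized comparison, for which the CPM and fold changes below are given. *marco*, a scavenger receptor of macrophages, had the highest mean level in WT, 64.3 ± 38.9 FPKM (SD, n = 3). *coro1a*, which encodes a coronin that organizes the actin cortex of leukocytes, followed with 54.2 ± 14.8 FPKM, and *mpeg1.1*, encoding the pore-forming protein perforin-2 of macrophages, with 29.8 ± 15.1 FPKM. These 3 genes were the most abundant markers in WT ventricles, although the ranges of neighbouring genes overlapped. *lyz*, the lysozyme used as a neutrophil marker, stood at 13.4 ± 8.62 FPKM. *lcp1* reached 9.47 ± 2.39 FPKM and *cybb* 9.40 ± 5.99 FPKM. The remaining genes had mean WT levels of 3.56 FPKM (*csf1ra*), 2.75 FPKM (*mfap4*), 2.50 FPKM (*spi1b*) and 0.373 FPKM (*mpx*). *spi1b* and *mpx* were the only neighbours in the WT order whose ranges did not overlap.

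In *grl5nt-/-* ventricles *marco* (37.9 ± 26.9 FPKM; SD, n = 3) and *coro1a* (35.6 ± 4.65 FPKM) again had the highest means and *mpx* (0.380 ± 0.225 FPKM) the lowest. *marco* was above *coro1a* in only 1 of the 3 mutant libraries. With CPM divided by the gene length implied by counts and FPKM, *coro1a* ranked 1 and *marco* 2 in the mutants. *lyz* came after *coro1a* in the mutants with 15.2 ± 4.25 FPKM, above *mpeg1.1* with 13.4 ± 3.46 FPKM, which is the reverse of their order in WT, but the ranges of these genes overlapped in both groups. *lcp1* had 5.17 ± 0.110 FPKM and *cybb* 3.28 ± 1.37 FPKM in the mutants. Neighbours in the mutant order whose ranges were separate were *coro1a* and *lyz*, *mpeg1.1* and *lcp1*, and *lcp1* and *cybb*.

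**Figure D1:**
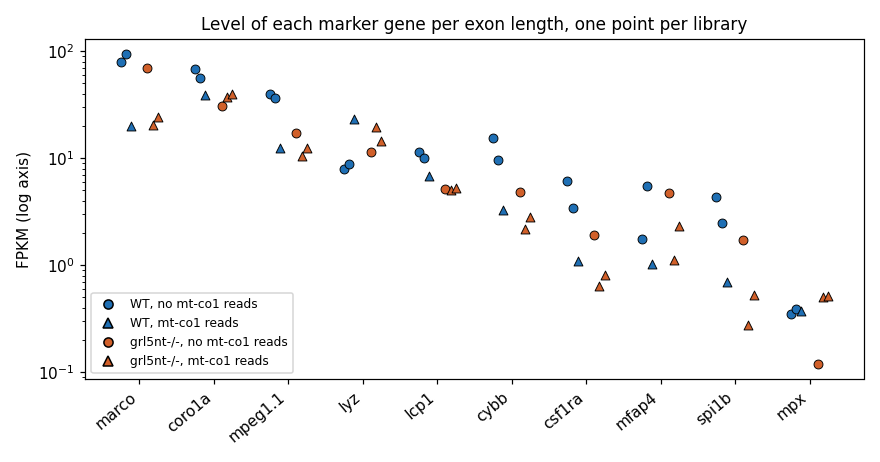
Deposited FPKM (log axis) of the 10 marker genes, ordered by their mean in WT, with 1 point for each of the 6 libraries. Color marks the genotype, and circles mark libraries without *mt-co1* reads and triangles those with them. *marco* has the highest mean FPKM in both groups, in the mutants through 1 library, and *mpx* has the lowest. Within each genotype the circles lie above the triangles for *marco*, *mpeg1.1*, *cybb*, *csf1ra*, *mfap4* and *spi1b*, and below them for *lyz*.

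To ask whether the loss of *grl* was accompanied by a different level of these markers, each gene was compared between the 3 *grl5nt-/-* and the 3 WT libraries. Mean levels of 7 of the 10 genes were lower in the mutants, *csf1ra*, *spi1b* and *cybb* by more than 1 on the log2 scale, while *mfap4*, *mpx* and *lyz* had slightly higher means. None of the 10 differences passed an adjusted p of 0.05 (edgeR's quasi-likelihood test, two-sided, Benjamini-Hochberg adjustment over 15602 genes), and the adjusted p ranged from 0.401 to 0.833. Over all tested genes, 0.0769% passed, 12 genes in all. At an unadjusted p below 0.05, 4 of the 10 genes were lower in the mutants (*mpeg1.1*, *csf1ra*, *lcp1* and *cybb*) and 0 were higher, against 6.35% and 4.22% of all tested genes. DESeq2 also called 0 of the 10 (1.24% over all genes in DESeq2), with 4 at an unadjusted p below 0.05. That number was 0 in edgeR without WT replicate 1, 2 without WT replicate 2, and 1 without mutant replicate 2 or without mutant replicate 3. Shares over all genes, here and below, are from the fit with all libraries and genotype alone unless another fit is named. Shares at an unadjusted p are not given for other fits, so such counts from those fits have no share of their own. Over all genes, edgeR called 30 without WT replicate 3 or mutant replicate 1, and 3 to 5 without another library. The median log2 fold change was -0.50 over the 10 genes and -0.05 over all tested genes, of which 53.1% had a lower mean in the mutants. It was -0.63 over the 4 macrophage genes, -0.84 over the 4 shared genes and 0.39 over the 2 neutrophil genes. A lower level in RNA from whole ventricles cannot tell fewer cells of a type from less RNA of that gene per cell. No test was run over the list, since its genes are expressed by the same cells.

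For each gene below, 3 values in a row belong to replicates 1, 2 and 3 of the group, and levels within a gene are in CPM. Positions are those of the deposited table, in the GRCz10 genome.

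*spi1b* (ENSDARG00000000767, chromosome 7 from 32373523 to 32388195) encodes PU.1, the transcription factor that commits blood progenitors to the myeloid lineages. Its level was 13.2, 8.06 and 3.21 CPM in WT and 6.08, 1.38 and 2.54 CPM in mutant ventricles. WT replicates 1 and 2 were above all mutants, but WT replicate 3 lay below mutant replicate 1. The log2 fold change was -1.28 (SE 0.63 and adjusted p = 0.505 in edgeR), from means of 8.16 ± 4.99 and 3.34 ± 2.45 CPM (± SD over 3 libraries). Leaving out WT replicate 1 gave -0.74, and leaving out mutant replicate 1 gave -2.04. The row shares 528 bases with *si:ch73-314g15.3*, and the sources used here do not say whether reads were counted by strand, so reads of both genes cannot be told apart there. Mutant replicate 2 rests on 16 counts, with an exact Poisson 95% interval of 9.15 to 26.0 that covers counting error only.

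*csf1ra* (ENSDARG00000102986, chromosome 14 from 3170816 to 3202049) encodes one of the zebrafish receptors for the growth factors Csf1 and Il34, which macrophages need. WT libraries had 19.5, 11.5 and 5.25 CPM, and mutant libraries 7.04, 3.29 and 4.00 CPM. WT replicates 1 and 2 again exceeded every mutant library, and WT replicate 3 lay within the mutant range. The mean of the mutants, 4.78 ± 1.99 CPM, was 2.52-fold lower than that of the WT, 12.1 ± 7.15 CPM (SD, n = 3; log2 fold change -1.34, SE 0.49, unadjusted p = 0.0257, adjusted p = 0.419 in edgeR). This was the largest difference in either direction among the 10 genes. It did not pass the threshold after adjustment over all tested genes, and the log2 fold change was -0.80 without WT replicate 1.

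*mpeg1.1* (ENSDARG00000055290, chromosome 8 from 29700878 to 29704389) is the gene whose promoter drives most zebrafish macrophage reporters. Its level was 108, 105 and 50.9 CPM in WT and 53.7, 46.3 and 52.2 CPM in mutant ventricles. The 3 mutant libraries were close to each other and to WT replicate 3, and WT replicates 1 and 2 stood above all of them. Accordingly, the fold difference of 1.73 between the means (87.7 ± 32.0 and 50.7 ± 3.88 CPM; SD, n = 3) rests on these 2 WT libraries (log2 fold change -0.79, SE 0.30, unadjusted p = 0.0289, adjusted p = 0.429 in edgeR). When WT replicate 3 was set against mutant replicates 2 and 3, the libraries with *mt-co1* reads, the log2 difference was -0.05.

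*marco* (ENSDARG00000059294, chromosome 9 from 796083 to 813878), whose product binds bacteria and modified lipoproteins, had 101, 126 and 38.7 CPM in WT and 101, 42.5 and 48.3 CPM in the mutants. The libraries formed a high set (WT replicates 1 and 2 and mutant replicate 1) and a low set (the other 3), and each set held both genotypes. The log2 fold change was -0.47 (SE 0.47 and adjusted p = 0.669 in edgeR) without regard to these sets, and 0.03 (SE 0.16 and adjusted p = 0.942) with a term for the *mt-co1* split, which divides the libraries in the same way. With a library left out it ranged from -0.94 (without mutant replicate 1) to -0.10 (without WT replicate 2).

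*mfap4* (ENSDARG00000090783, chromosome 1 from 58296087 to 58314908) encodes a secreted fibrinogen-domain protein and serves as a macrophage marker in zebrafish. Its level was 2.33, 7.70 and 2.04 CPM in WT and 7.31, 2.42 and 4.88 CPM in mutant ventricles. The highest library was a WT and the next a mutant, and the groups overlapped along most of their range (log2 fold change 0.28, SE 0.59 and adjusted p = 0.833 in edgeR). The gene belongs to a cluster of close copies. Another 12 rows of the table carry the same family name, 4 of them overlapping it, so its count is uncertain. Summed over these 13 rows, the level was 16.2, 30.5 and 16.6 CPM in WT and 27.0, 34.5 and 30.4 CPM in the mutants.

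*lcp1* (ENSDARG00000023188, chromosome 9 from 56663226 to 56705090) encodes L-plastin, an actin-bundling protein of leukocytes and a common antigen for staining them. It was the one gene of the 10 whose groups did not overlap. The WT libraries had 41.0, 38.1 and 36.9 CPM, and the mutants 21.3, 29.6 and 29.7 CPM. Means were 38.7 ± 2.10 and 26.9 ± 4.79 CPM (SD, n = 3), with a log2 fold change of -0.53 (SE 0.21, unadjusted p = 0.0352, adjusted p = 0.446 in edgeR). The exact permutation test gave p = 0.1 (two-sided), the smallest p that 3 libraries against 3 allow. Of all tested genes, 8.64% had all mutants below all WT and 6.95% had all mutants above. *lcp1* differed little across the *mt-co1* split, and the mutant was lower on both sides of it, by 0.89 on the log2 scale among libraries without *mt-co1* reads and by 0.32 among those with them.

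*coro1a* (ENSDARG00000054610, chromosome 3 from 30795522 to 30810520) had 95.7, 84.0 and 82.3 CPM in WT and 49.6, 85.3 and 87.2 CPM in mutant ventricles. Mutant replicate 1 alone lay below the WT range, and the other 2 mutants lay inside it (log2 fold change -0.24, SE 0.26 and adjusted p = 0.688 in edgeR). Without mutant replicate 1 the log2 fold change was 0.01.

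*cybb* (ENSDARG00000056615, chromosome 11 from 29547981 to 29569255) encodes the catalytic subunit of the phagocyte NADPH oxidase, the enzyme of the oxidative burst. It had 43.9, 29.5 and 14.3 CPM in WT libraries and 16.1, 10.3 and 12.9 CPM in mutant libraries. The order resembled that of *csf1ra* and *spi1b*, with WT replicate 1 highest, WT replicate 3 lowest of the WT and mutant replicate 1 highest of the mutants. The mean of 13.1 ± 2.89 CPM in mutants was 2.24-fold lower than the 29.2 ± 14.8 CPM in WT (SD, n = 3; log2 fold change -1.16, SE 0.39, unadjusted p = 0.0169, adjusted p = 0.401 in edgeR), and this adjusted p was the lowest of the 10. Without WT replicate 1 the log2 fold change was -0.74.

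The neutrophil genes had a different order of libraries. *lyz* (ENSDARG00000057789, chromosome 24 from 23890689 to 23893626) had 3.73, 4.42 and 16.5 CPM in WT and 6.15, 15.1 and 10.7 CPM in mutant ventricles. Its highest library was WT replicate 3, which had the lowest WT level of all 8 macrophage and shared genes. The groups overlapped (log2 fold change 0.39, SE 0.59 and adjusted p = 0.771 in edgeR). Without WT replicate 3 the log2 fold change of *lyz* was 1.40 (adjusted p = 0.145 in edgeR).

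*mpx* (ENSDARG00000019521, chromosome 10 from 7815556 to 7827254) encodes myeloperoxidase, the granule enzyme that makes hypochlorous acid. It was the scarcest of the 10 genes, with WT counts of 30, 31 and 32 and mutant counts of 9, 42 and 37, or 1.55, 1.85 and 2.51 CPM against 0.62, 3.63 and 3.61 CPM. One mutant lay below all WT and 2 lay above (log2 fold change 0.40, SE 0.61 and adjusted p = 0.771 in edgeR). The 9 counts of mutant replicate 1 have an exact Poisson 95% interval of 4.12 to 17.1, for counting error only. Taking 3 counts as the limit of detection, 0.155 to 0.293 CPM depending on the library, *mpx* was above it in all 6.

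**Figure D2:**
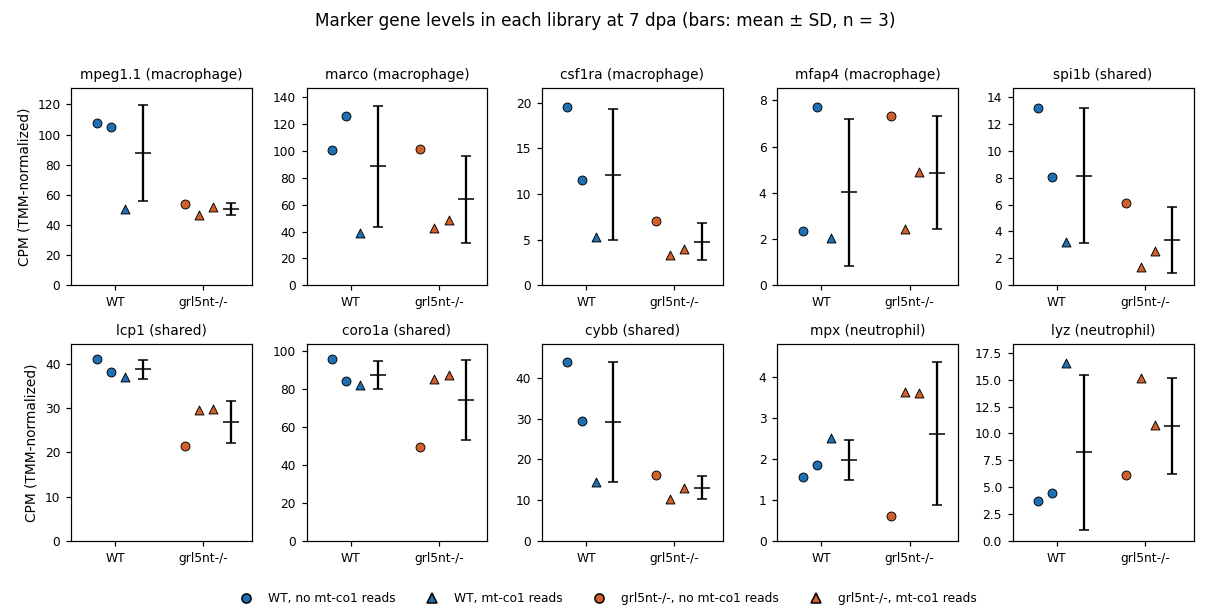
Level of each marker gene in each library in TMM-normalized CPM, with 1 panel per gene, WT in blue and *grl5nt-/-* in orange, and bars for the mean ± SD of 3 libraries. Circles are libraries without *mt-co1* reads and triangles those with them; *lcp1* is the one gene with all mutants below all WT, and in *mpeg1.1*, *csf1ra*, *spi1b* and *cybb* the 2 WT circles lie above every mutant.

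**Figure D3:**
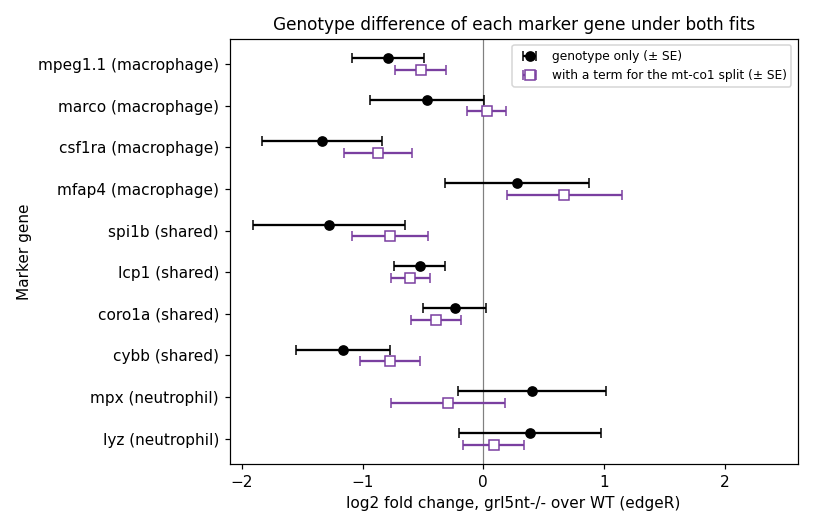
Log2 fold change of *grl5nt-/-* over WT for each marker gene, with its standard error, from edgeR with genotype alone (filled circles) and with an added term for the *mt-co1* split (open squares). *csf1ra*, *spi1b* and *cybb* are the lowest under both fits, *mfap4* is the highest with the split term, and no difference passes the adjusted threshold under either fit.

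The markers also differed between the libraries on the 2 sides of the *mt-co1* split. *mpeg1.1*, *marco*, *csf1ra*, *spi1b* and *cybb* were higher in all 3 libraries without *mt-co1* reads than in any library with them, and *mpx* and *lyz* were lower in all 3. Such separation was common, with 27.1% of all tested genes higher and 24.1% lower in all libraries without *mt-co1* reads. In the fit with both terms, the log2 difference of libraries without *mt-co1* reads from those with them ranged from 1.69 for *spi1b*, 1.35 for *marco* and 1.27 for *csf1ra* to -1.40 for *mpx* and -1.56 for *lyz*. Of the 4 macrophage markers, *mfap4* overlapped across the split. *mpx* and *lyz* do not stand for every neutrophil gene here. The 15 further neutrophil genes described below had a median of -0.28 on the same scale, the same direction as *mpx* and *lyz*. Among them *csf3r* had 1.13, but its libraries overlapped across the split (3.84 CPM in WT replicate 3 and 3.69 CPM in mutant replicate 1). Of the 15 genes, 2 were higher in all libraries without *mt-co1* reads than in any with them, opposite to *mpx* and *lyz*. A larger number of the 15 were lower in all libraries without *mt-co1* reads, the direction of *mpx* and *lyz*. The 4 macrophage genes together had 230.4, 249.9 and 96.9 CPM in WT and 169, 94.6 and 109.5 CPM in the mutants. The sum of *mpx* and *lyz* was 5.28, 6.27 and 19.0 CPM in WT and 6.77, 18.8 and 14.4 CPM in the mutants. The ratio of *lyz* to *mpeg1.1* in FPKM was 0.198 and 0.242 in WT replicates 1 and 2 and 0.657 in mutant replicate 1, but 1.86 in WT replicate 3 and 1.87 and 1.18 in mutant replicates 2 and 3.

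With a term for the split in the model, the genotype difference of the 10 genes had a median log2 fold change of -0.46, against -0.02 over all tested genes. The fold changes of *lcp1* (-0.60, SE 0.16 and adjusted p = 0.104 in edgeR), *csf1ra* (-0.87, SE 0.28 and adjusted p = 0.156), *cybb* (-0.77, SE 0.25 and adjusted p = 0.156), *spi1b* (-0.77, SE 0.31 and adjusted p = 0.238) and *mpeg1.1* (-0.52, SE 0.21 and adjusted p = 0.239) had the same sign as without it. On each side of the split taken alone, the mean of these 5 genes was also lower in the mutants, and that of *mfap4* was higher. Each side has only 1 library of one genotype, so these directions rest on single libraries. For *mpeg1.1*, WT replicate 3 (50.9 CPM) lay between mutant replicates 2 and 3 (46.3 and 52.2 CPM). No marker passed the threshold with this term, where 1.54% of all tested genes did. The part of the split in the differences between genotypes was not tested further. It holds 2 WT libraries and 1 mutant on one side and 1 WT and 2 mutants on the other, so that genotype and split are partly confounded.

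**Figure D4:**
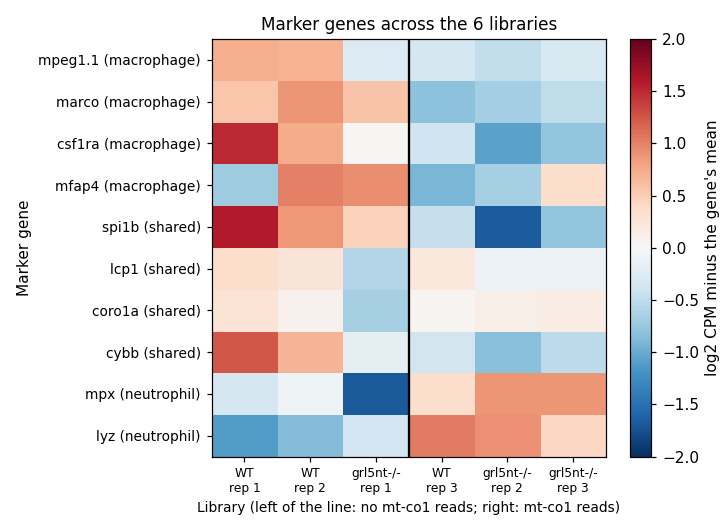
Log2 CPM of each marker gene in each library minus that gene's mean over the 6 libraries, on a color scale from -2 (blue) to 2 (red). The line separates libraries without *mt-co1* reads (left) from those with them (right); *csf1ra*, *spi1b* and *cybb* are highest in WT replicate 1, and *lyz* and *mpx* have the opposite sides.

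Other genes of the same cells were counted by list. The lists were written with earlier results of these data known, so their counts are descriptions. Of 14 further macrophage genes tested, 13 had a lower mean in the mutants (53.1% over all genes), 3 of them with an unadjusted p below 0.05 (6.35% over all genes), and the median log2 fold change was -0.33. Without WT replicate 1, 10 were lower, 0 had such a p and the median was -0.22. With the split term the median was -0.25. The number with such a p was 6 without WT replicate 3, and 1 when WT replicate 2 or either of mutant replicates 2 and 3 was left out. *c1qa*, a subunit of complement C1q that macrophages make, had 66.5, 62.6 and 49.4 CPM in WT and 38.4, 38.4 and 38.9 CPM in mutants. All its mutants were below all WT, as in 8.64% of all tested genes (log2 fold change -0.63, SE 0.20 and adjusted p = 0.392 in edgeR). *irf8*, a transcription factor needed for macrophage formation, had 57.5, 32.2 and 20.9 CPM in WT and 18.7, 19.5 and 20.1 CPM in mutants (log2 fold change -0.93, adjusted p = 0.424). Its lowest WT library was within 1 CPM of the highest mutant. *csf1rb*, the paralog of *csf1ra*, and *mpeg1.2*, that of *mpeg1.1*, had log2 fold changes of -1.37 (adjusted p = 0.465) and -0.60 (adjusted p = 0.490). Among libraries with *mt-co1* reads alone, the log2 difference was -0.08 for *irf8*, -0.08 for *mpeg1.2*, -0.35 for *c1qa* and -1.22 for *csf1rb*. These genes were named for the smallest p of the list. The other tested genes of the list went both ways on that side, more of them higher than lower in the mutants, from -0.25 to 0.58.

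Of 15 further neutrophil genes tested, 9 had a lower and 6 a higher mean in the mutants (53.1% lower over all genes). Their median log2 fold change was -0.20. An unadjusted p below 0.05 in edgeR was found for 4 lower genes and 1 higher gene (6.35% and 4.22% over all genes). The number of lower ones was 2 to 6 with a library left out (2 without WT replicate 2 or mutant replicate 3). The median was -0.57 without mutant replicate 2 and -0.28 with the split term. *csf3r*, the receptor of granulocyte colony-stimulating factor, had 13.5, 8.89 and 3.84 CPM in WT and 3.69, 2.25 and 2.44 CPM in mutants (log2 fold change -1.64, SE 0.47 and adjusted p = 0.340 in edgeR). *cxcr4b*, the Cxcl12 receptor that retains neutrophils in tissues and is also made by other cells, had 80.9, 102 and 107 CPM in WT and 62.1, 56.6 and 61.2 CPM in mutants (log2 fold change -0.69, SE 0.20 and adjusted p = 0.355). Both genes had all mutants below all WT, which *mpx* and *lyz* did not. Of the 15 genes, 3 had all mutants below all WT and 0 had all above, against 8.64% and 6.95% of all tested genes. The matrix metalloproteinase gene *mmp9* had a log2 fold change of -0.75 (adjusted p = 0.471) and the nucleoside phosphorylase gene *pnp5a* one of 0.79 (adjusted p = 0.470).

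Among 5 tested ligands of myeloid growth and recruitment, 4 had lower means in the mutants (median -0.33), against 53.1% over all genes. This median was -0.024 without WT replicate 1, with 3 of 5 lower, -0.045 without mutant replicate 3 and -0.57 without mutant replicate 1. With the split term it was -0.09. The one with the smallest p was *il34*, which encodes a ligand of Csf1r. It had 28.0, 20.6 and 17.0 CPM in WT and 8.34, 15.0 and 8.40 CPM in mutants, all mutants below all WT (8.64% over all genes). Its log2 fold change was -1.05 (SE 0.31 and adjusted p = 0.358 in edgeR). *cxcl12a*, *csf3a* and *cxcl12b* had log2 fold changes of -0.37, -0.33 and -0.20. Of 6 genes whose products work with Cybb in the NADPH oxidase, 5 had lower means (53.1% over all genes), with a median of -0.48. The median was -0.19 without WT replicate 1, with 4 of 6 lower, -0.32 without mutant replicate 1 and -0.72 without WT replicate 3. With the split term it was -0.27. *cyba*, the other membrane subunit, had a log2 fold change of -0.57 (adjusted p = 0.471), *rac2* one of -0.47 and *rac1a*, which most cells express, one of 0.46.

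Genes of leukocytes in general had lower means in the mutants when all libraries were used. All 24 tested had a lower mean in the mutants (53.1% over all genes), and the median log2 fold change was -0.74. An unadjusted p below 0.05 was found for 8 (6.35% over all genes), and 9 had all mutants below all WT (8.64%). The list was written with earlier results of these data known, so these counts are a description and not a test. Over the alternatives tried, 23 to 24 of the genes were lower and the median ranged from -0.996 (without WT replicate 3) to -0.44 (without WT replicate 1). With the split term it was -0.47. Of the 24 genes, 11 were higher in all libraries without *mt-co1* reads than in any with them (27.1% over all genes). Their median log2 difference across the split was 0.60 over the 24 genes in the fit with both terms. Among libraries with *mt-co1* reads alone, most of the 24 genes were lower in the mutants and some were higher, with log2 differences from -1.52 to 0.32. That side has only 1 WT library. The number with an unadjusted p below 0.05 was 2 without WT replicate 1, mutant replicate 2 or mutant replicate 3, 4 without WT replicate 2, 12 without mutant replicate 1 and 16 without WT replicate 3. *cebpb*, a transcription factor of myeloid differentiation and of inflammatory responses in many cell types, had 131, 109 and 167 CPM in WT and 44.4, 61.0 and 55.1 CPM in mutants. The 2 groups were far apart, and *cebpb* was highest in WT replicate 3, the WT library with the lowest WT level of each macrophage marker. Its log2 fold change was -1.34 (SE 0.25 and adjusted p = 0.151 in edgeR). It was called in 5 of 15 alternatives, among them DESeq2 (adjusted p = 0.00196, where 1.24% of all genes were called), the fit with the split term (-1.48, adjusted p = 0.00349) and limma on log2(FPKM + 1) (adjusted p = 0.0157, where 0.032% were called), and its adjusted p ranged from 0.00196 to 0.588 over them. *samsn1a*, an adaptor of immune receptor signalling, had a log2 fold change of -1.28 (adjusted p = 0.340), *plek*, a substrate of protein kinase C in leukocytes, one of -0.97 (adjusted p = 0.424), and *spi1a*, the second zebrafish PU.1 gene, one of -0.71 (adjusted p = 0.457).

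Markers of other cells in the ventricle were read beside these. The 4 tested T cell genes had log2 fold changes with a median of -2.17. This median was -1.51 without WT replicate 1, -2.74 without mutant replicate 1, -1.82 with the split term and -0.70 in limma on log2(FPKM + 1). The T cell list summed to 26.7, 10.5 and 4.86 CPM in WT and 4.03, 1.64 and 2.44 CPM in mutants. Its tested genes had as few as 3 counts in a mutant library. The B cell list summed to 3.84 to 12.5 CPM in WT and 3.03 to 6.90 CPM in mutants. Only 5 of 10 listed T cell genes and 5 of 7 listed B cell genes were found by symbol. These sums therefore do not give the level of lymphocyte transcripts as a whole. Summed levels of thrombocyte genes overlapped between the groups (183 to 259.6 CPM in WT and 190.0 to 267 CPM in mutants, 5 genes). Erythrocyte genes, which report blood left in the tissue, summed to 7219, 16300 and 33240 CPM in WT and 18270, 35780 and 27120 CPM in mutants. This sum, most of it *hbaa1*, was higher in every library with *mt-co1* reads than in the libraries without, although *epor*, the erythropoietin receptor gene of the list, was not. These were the same libraries in which *mpx* and *lyz* were high and *mpeg1.1* and *spi1b* were low. The part of blood in the marker values was not tested. Median log2 fold changes of the other lists were 0.11 for 8 endothelial and endocardial genes, -0.33 for 8 epicardial genes, -0.30 for 8 cardiomyocyte genes and 0.36 for 2 mast cell genes. None of the lists held a gene that passed the adjusted threshold in edgeR with genotype alone. DESeq2 (1.24% called over all genes) called 2 of the T cell genes and 1 general leukocyte gene, *cebpb*. With the split term (1.54% over all genes) *cebpb* and 1 epicardial gene were called. With a block for the replicate number (132 genes called over all) *cebpb* and 1 T cell gene were called. No list had a marker at 0 in all libraries.

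Finally, the tested genes whose profile over the 6 libraries was closest to the mean profile of the 10 markers were found by the root mean square difference of centred log2 CPM. The nearest was *fermt3b* (0.0611), which encodes the integrin activator kindlin-3 of blood cells, with 10.8, 9.79 and 6.97 CPM in WT and 6.70, 6.05 and 6.54 CPM in mutants. The next were *herc3* (0.0640), *mbd3b* (0.0673), *wipi1* (0.0731) and *tbc1d31* (0.0760), which are not leukocyte markers. Of the markers themselves, *mpeg1.1* was nearest to their mean profile (0.214) and *lyz* farthest from it (1.09). These distances describe 6 libraries and carry no test.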

How the data were processed

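RNA from injured ventricles of 3 WT and 3 *grl5nt-/-* pools of 6 hearts was sequenced. The authors filtered reads with Seqtk, and used HISAT2 (2.0.4) with the GRCz10 genome for mapping and StringTie (1.3.0) for FPKM, as stated in the study's methods and the submitters' processing notes. The authors deposited whole-number counts without normalization and FPKM for 32105 genes. The counting program and the use of strand are not given in the sources used here. Columns were matched to samples by the letter in each sample's label.

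Counts were filtered with filterByExpr, normalized with TMM factors and tested with edgeR 4.0.16 (quasi-likelihood, two-sided) in R 4.3.3, with Benjamini-Hochberg adjustment over 15602 genes. CPM use the TMM factors. Standard errors come from the fold change and the F statistic. Single genes were also compared with an exact permutation test of log2 CPM (prior count 2). The deposited FPKM were used for levels between genes. Replicates are pools of separate hearts.

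The alternatives were size factors of DESeq2 or upper quartile factors in edgeR, DESeq2 1.42.0, a filter of 1 FPKM on the mean, no filter at all, limma 3.58.1 on log2 FPKM after adding 1 or 0.1, a block for the replicate number, a term for the *mt-co1* split, values within each side of it, a threshold of 0.1 on the adjusted p, CPM divided by the implied gene length for levels, and each library left out in turn. The markers, lists and tests were chosen with earlier results of these data known. Named genes are the 10 markers, *hey2*, mitochondrial genes of the split, at most 4 genes per list (smallest p) and the 5 nearest profiles. Sequences of the promoters and proteins of the markers are not analysed here. One gene of a list that the rule would name is not reported here.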

Additional observations from a re-analysis of the deposited data

How the results depend on the processing

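No marker was called in any of the 15 alternative fits, and 0 markers passed an adjusted p of 0.1 in edgeR with genotype alone, although *csf1ra* had 0.0969 with the replicate number as a block. Leaving out each library in turn also gave 0 called markers, in fits that called only 3 to 30 of all tested genes. Few genes were called at all there, so this 0 says little about the markers. The lowest adjusted p of any marker over the alternative fits was 0.0882, for *cybb* in edgeR without WT replicate 3. The number of markers with an unadjusted p below 0.05 was 4 with all libraries and 0 to 5 with a library left out, with 0 left without WT replicate 1, 2 without WT replicate 2 and 1 without mutant replicate 2 or 3. The median log2 fold change of the 10 markers was -0.50, and it ranged from -0.68 to -0.38 with a library left out. It was -0.77 in limma on log2(FPKM + 0.1), where the median of all genes shifted to -0.33. Within the split it was -0.87 among libraries without *mt-co1* reads and -0.18 among those with them. Of 169 values of single markers under an alternative, 158 had the same direction and 11 the opposite one. The sign changed for *mpx* in limma on log2(FPKM + 1) (-0.0061) and log2(FPKM + 0.1) (-0.12), with the split term (-0.29) and without *mt-co1* reads (-1.28). It changed for *marco* with the split term (0.030) and among libraries with *mt-co1* reads (0.23), for *mfap4* without WT replicate 3 (-0.017) or mutant replicate 1 (-0.13; range with a library left out -0.13 to 1.17), for *coro1a* without mutant replicate 1 (0.0073; range -0.36 to 0.0073) and among libraries with *mt-co1* reads (0.068), and for *lyz* among the latter (-0.37). The cause was not tested. *mpx* was not fitted with the filter of 1 FPKM. The replicate numbers share no stated batch, and deviations of same-numbered libraries had correlations of 0.593, -0.338 and 0.385, WT replicate 2 correlating best with mutant replicate 1 (0.428). With the replicate number as a block, the median was -0.47 and 0 markers were called, with 132 genes called over all instead of 12. Counts limit *mpx*, *mfap4* and *spi1b* most.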
